A study of Mus musculus with 6 samples.

Results

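The cytosolic ribosomal protein genes of the mouse were described by their peaks of histone H3 lysine 27 acetylation (H3K27ac) in 2 cell types of the fetal lung. A gene was a member when it was protein-coding and its symbol had the form Rpl, Rps or Rplp followed by a number and, in some genes, a short suffix. This gave 83 of 21883 protein-coding genes on chromosomes 1 to 19, X and Y. They were 43 large-subunit genes, 30 small-subunit genes, 3 genes of the ribosomal stalk and 7 genes named after another member with an added l or l1. The choice used names alone and no measured value. Each gene was read over a window of its body and 2 kb on each side, and the length of sequence under peaks was taken in every library. All values below are on that scale, in kb, unless another is named.

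The cytosolic ribosome is the machine that translates messenger RNA in every cell, and its proteins are made in nearly equal amounts from genes scattered over the genome. These genes are transcribed at high rates in dividing cells, mostly from short housekeeping promoters without a TATA box. Their messenger RNAs start with a pyrimidine-rich stretch, the terminal oligopyrimidine tract, through which the growth-controlling kinase mTOR adjusts their translation. H3K27ac marks active promoters and enhancers, so these genes serve as a reference for promoters in use in every cell type.

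The cells came from embryos of timed matings of Myrf Fl/Fl mice, in which the gene of the transcription factor MYRF is flanked by recombination sites. No Cre is named in the labels, and the mesothelial cells are described there as wildtype. Lungs of several embryos were pooled at E16.5, an embryonic age counted in days. Mesothelial cells, which form the outer covering of the lung, were gated as PDPN+EPCAM-CD45-CD31-DAPI-, where DAPI marks dead cells. The gate for epithelial cells was PDPN+EPCAM+CD45-CD31-DAPI-. CUT&RUN, which releases the DNA around an antibody target by a tethered nuclease, gave 2 H3K27ac libraries per cell type. Mesothelium replicate 1 was titled with 25k cells, mesothelium replicate 2 and epithelium replicate 1 with 100k each, and epithelium replicate 2 with 200k, where k is 1000. A further 2 libraries with a control IgG, from epithelial cells, were not analysed here.

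The deposited lists held 39010, 41532, 47873 and 46633 broad peaks in mesothelium 1, mesothelium 2, epithelium 1 and epithelium 2, the order used for every set of 4 values below. The sequencing depth is unknown, since a peak list holds no read counts, and a missing peak is not missing acetylation. No label says whether the 2 libraries of a cell type came from separate pools, so every p-value measures only the spread between libraries. Of 10 mesothelial marker genes, 9, 9, 4 and 4 had a peak, and of 10 epithelial markers 7, 2, 9 and 10 had one. The summed length over the mesothelial markers was 22.5, 53.5, 3.95 and 5.52 kb. Among them Krt19 was longer in both epithelium libraries, and Msln was longest in epithelium 2. The summed length over the epithelial markers was 16.3, 1.50, 66.1 and 75.2 kb, so mesothelium 1 carried more epithelial marker sequence than mesothelium 2. The part of these differences in the results below was not tested. Of 6 mesenchymal markers 3, 4, 1 and 1 had a peak (2.27, 2.45, 0.370 and 0.318 kb in sum), of 5 endothelial markers 4, 3, 2 and 3 (9.45, 5.27, 0.703 and 2.39 kb), and of 5 blood markers 2, 0, 0 and 2. The mesenchymal and endothelial sums were thus higher in both mesothelium libraries. Single genes went the other way: the endothelial Cdh5 (0, 0, 0.378 and 0.835 kb) and the mesenchymal Acta2 (0, 0, 0.370 and 0 kb) had peaks in epithelium only.

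RefSeq promoter sequences of the assembly GRCm38.p6, which mm10 names, matched 63 of the 83 members. Printed here are 120 bases before to 19 bases after the annotated start of 9 members on which the results turn, with the longest run of C and T letters overlapping the 5 bases before to 10 bases after the start in capitals. The first 3 had peaks in all 4 libraries and, among members with a sequence, the highest mean percentile of their strongest peaks within the lists. They were Rpl15 at chr14:18270967-18271106 on the minus strand, Rps7 at chr12:28635934-28636073 on the minus strand and Rpl31 at chr1:39367731-39367870 on the plus strand. In epithelium 2 alone the peak of Rpl31 ranked low, at percentile 32.9 of that list by −log10 q.
Rpl15: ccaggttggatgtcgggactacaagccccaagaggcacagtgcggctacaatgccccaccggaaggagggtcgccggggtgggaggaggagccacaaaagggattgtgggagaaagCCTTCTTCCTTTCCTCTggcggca
Rps7: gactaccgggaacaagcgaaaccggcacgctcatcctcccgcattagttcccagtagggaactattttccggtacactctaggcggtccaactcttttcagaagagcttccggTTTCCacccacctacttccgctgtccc
Rpl31: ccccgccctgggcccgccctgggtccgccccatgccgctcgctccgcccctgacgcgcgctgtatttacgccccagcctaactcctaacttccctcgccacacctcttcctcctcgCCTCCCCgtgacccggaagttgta

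The next 4 were taken from members with a sequence whose libraries did not overlap between the cell types. Among these members they had the largest differences in peak length, 2 in each direction. Rpl35 and Rpl22l1 had the longer peaks in mesothelium, and Rps19 and Rps13 had them in epithelium. They were Rpl35 at chr2:39005112-39005251 on the minus strand, Rpl22l1 at chr3:28805388-28805527 on the plus strand, Rps19 at chr7:24884472-24884611 on the plus strand and Rps13 at chr7:116334171-116334310 on the minus strand.
Rpl35: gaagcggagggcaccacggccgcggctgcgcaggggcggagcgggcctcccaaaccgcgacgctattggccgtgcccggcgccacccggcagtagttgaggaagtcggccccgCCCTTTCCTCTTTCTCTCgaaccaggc
Rpl22l1: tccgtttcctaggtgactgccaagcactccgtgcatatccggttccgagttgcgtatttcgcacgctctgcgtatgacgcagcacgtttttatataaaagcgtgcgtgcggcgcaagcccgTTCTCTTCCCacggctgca
Rps19: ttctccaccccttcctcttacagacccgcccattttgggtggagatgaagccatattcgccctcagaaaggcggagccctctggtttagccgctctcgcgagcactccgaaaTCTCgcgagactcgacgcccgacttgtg
Rps13: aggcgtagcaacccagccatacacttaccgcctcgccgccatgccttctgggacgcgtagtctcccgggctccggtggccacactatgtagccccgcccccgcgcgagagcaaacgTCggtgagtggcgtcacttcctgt

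The last 2 had no peak in any library. They were Rpl39l at chr16:10170108-10170247 on the plus strand and Rps26 at chr10:128626487-128626626 on the minus strand.
Rpl39l: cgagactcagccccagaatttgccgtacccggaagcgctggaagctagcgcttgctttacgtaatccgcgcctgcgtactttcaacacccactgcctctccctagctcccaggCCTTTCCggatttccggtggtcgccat
Rps26: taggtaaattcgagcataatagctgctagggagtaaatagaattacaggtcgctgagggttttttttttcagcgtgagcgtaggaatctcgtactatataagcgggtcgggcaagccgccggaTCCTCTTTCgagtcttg

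Capital runs of 17 and 18 bases covered the start bases of Rpl15 and Rpl35. Those of Rpl22l1 and Rps26, of 10 and 9 bases, began 1 and 3 bases after the start base, which was G in each. The runs of Rps7, Rpl31 and Rpl39l were 5, 7 and 7 bases long. In Rps19 and Rps13 they were 4 and 2 bases. Both strong and absent peaks therefore occurred with long and with short runs. A run of at least 8 bases was present in 24 of 63 members (38.1%), in 7 of 69 mitochondrial ribosomal protein genes (10.1%) and in 11.3% of 17491 coding genes with a sequence. The start base was C in 22 members (34.9%) and in 13.7% of coding genes. Over the window from 3 bases before to 6 bases after the start, 64.0% of member bases and 48.9% of bases of all coding genes were pyrimidines, against 51.2% and 50.0% from 60 to 20 bases before it. Members with peaks in all 4 libraries had a run of at least 8 bases in 8 of 24 cases (33.3%), and the others in 16 of 39 (41.0%).

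**Figure D1:**
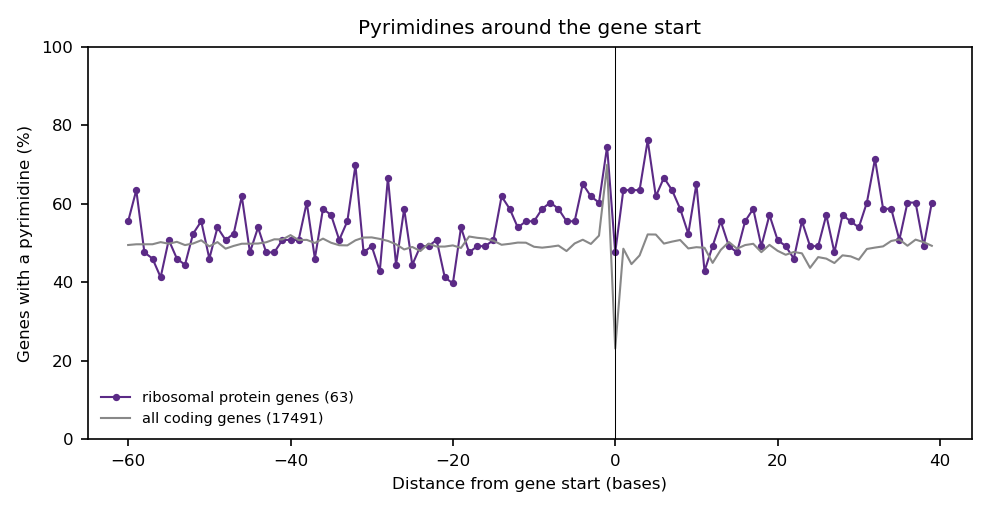
Share of genes with C or T at each base from 60 before to 39 after the annotated start, for 63 ribosomal protein genes (points) and 17491 coding genes (grey line). The members lie above all coding genes around the start, with their highest share, 76.2%, at 4 bases after it, while from 60 to 20 bases upstream they average 51.2% and all coding genes 50.0%.

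Short motifs were counted on both strands of the 300 bases from 250 before to 50 after the start, and none of the letter strings searched contains another. The ETS core CCGGAAG, the recognition core of the ETS family of transcription factors, was found in 24 of 63 members (38.1%) and in 11.9% of coding promoters of the same length. The YY1 core ATGGCGG was found in 15.9% of members and 5.43% of coding promoters, and the SP1 box GGGCGG in 58.7% and 46.3%. The E-box CACGTG, bound by MYC and related factors, was found in 7.94% and 7.91%, and TATAAA in 12.7% and 13.3%. The CCAAT box was found in 28.6% of members and 39.2% of coding promoters. Members held a median of 21 CpG dinucleotides and coding promoters a median of 13, at a GC content of 57.0% and 56.3%. A match is a description of the letters and not evidence of binding.

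Most ribosomal protein genes carried H3K27ac peaks in each library. A peak lay in the window of 65, 75, 60 and 58 of the 83 members, or 78.3%, 90.4%, 72.3% and 69.9%, against 46.8%, 50.6%, 49.3% and 49.4% of all coding genes. The share was highest in mesothelium 2 and lowest in epithelium 2, and both mesothelium libraries lay above both epithelium libraries. With 5 kb flanks mesothelium 1 lay below both epithelium libraries, the members' shares being 78.3%, 91.6%, 80.7% and 79.5%. All coding genes then had 50.6%, 54.0%, 53.3% and 53.5%. At a −log10 q of at least 4 mesothelium 1 lay below epithelium 1 (2.41% and 3.61% of members). Where −log10 q had to reach 2, the members' share in epithelium 1 fell below that of all coding genes (21.7% against 24.1%) and the other 3 libraries kept the higher share. With 2 libraries against 2, an exact permutation test cannot go below p = 0.33, so no test was made of these counts. The windows were short, with a median of 7.18 kb against 21.2 kb for all coding genes, and 42 of them (50.6%) reached another coding gene, as did 37.2% of all windows. Peaks in those windows may lie on the neighbour.

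As a comparison with another set of housekeeping genes, the mitochondrial ribosomal protein genes had a peak in 43, 58, 46 and 47 of 78 windows. The vomeronasal receptors, a family of pheromone receptors of the nose, had one in 13, 9, 24 and 19 of 353 windows (3.68%, 2.55%, 6.80% and 5.38%). The cytosolic members thus stood above both sets in every library, without a test of the difference.

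**Figure D2:**
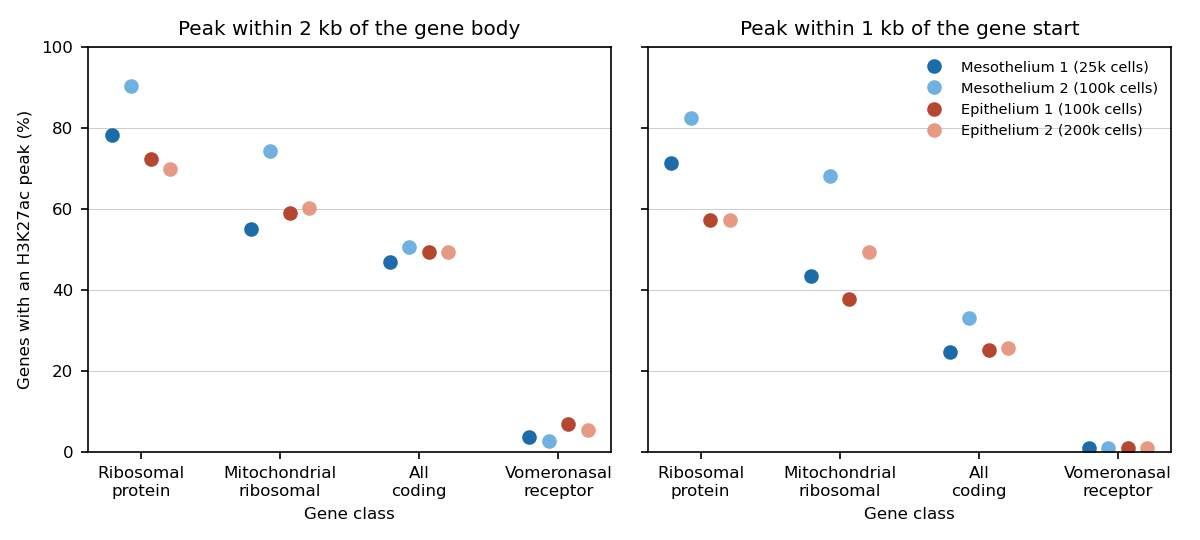
Share of genes with an H3K27ac peak in each of 4 libraries (points), within 2 kb of the gene body (left) and within 1 kb of the gene start (right). In both panels the ribosomal protein genes lie highest and the vomeronasal receptors lowest in every library, and mesothelium 2 gives the highest ribosomal protein share, 90.4% and 82.5%.

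Presence varied between libraries. A peak was called in all 4 libraries for 36 members (43.4%), against 29.7% of all coding genes. With gene bodies alone these shares were 27.7% and 26.6%, and at a threshold of 2 on −log10 q they were 4.82% and 9.34%, the members then lying below. With 5 kb flanks they were 55.4% and 32.8%, and within 1 kb of either gene end 34.9% and 10.9%. A peak was called in 3 libraries for 29 members (34.9%), in 2 for 11 (13.3%), in 1 for 5 (6.02%) and in none for 2 (2.41%). Of all coding genes, 13.4% had a peak in 3 libraries, 11.7% in 2, 13.4% in 1 and 31.7% in none. The 2 mesothelium libraries shared 61 of the 79 members with a peak in either (77.2%), and the 2 epithelium libraries shared 43 of 75 (57.3%). Library pairs from different cell types shared 66.2% to 72.7%, so the 2 epithelium libraries overlapped less with each other than either did with mesothelium. The shared part also depends on how many members have a peak, 65 and 75 in mesothelium and 60 and 58 in epithelium. It was not corrected for this. For all coding genes the shared part was 66.7% within mesothelium, 65.0% within epithelium and 63.1% to 64.2% between them.

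Of the members with a peak in 3 libraries, 11 (13.3% of all members) were missing in epithelium 1 and 11 in epithelium 2. Each of these patterns was found for 3.42% of all coding genes. A further 5 (6.02%, against 3.78% of all coding genes), Rpl13a, Rpl18, Rpl34 and Rpl36a among them, were missing in mesothelium 1. Rpl6 and Rps3 (2.41%, against 2.80%) were missing in mesothelium 2. A peak in both mesothelium libraries and in neither epithelium library was found for 3 members (3.61%), Rpl35, Rplp2 and Rps3a1, against 2.4% of all coding genes. No member had the opposite pattern, against 2.55% of all coding genes. Presence was also split across the cell types. Rpl26, Rpl27, Rpl3 and Rpl38 (4.82%) had peaks in both replicates numbered 2 alone, against 2.13% of all coding genes. Rpl3l and Rps4x (2.41%) had them in both replicates numbered 1 alone, against 1.27%. Rpl23 had them in mesothelium 2 and epithelium 1 alone, a pattern of 2.41% of members and 2.08% of all coding genes.

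**Figure D3:**
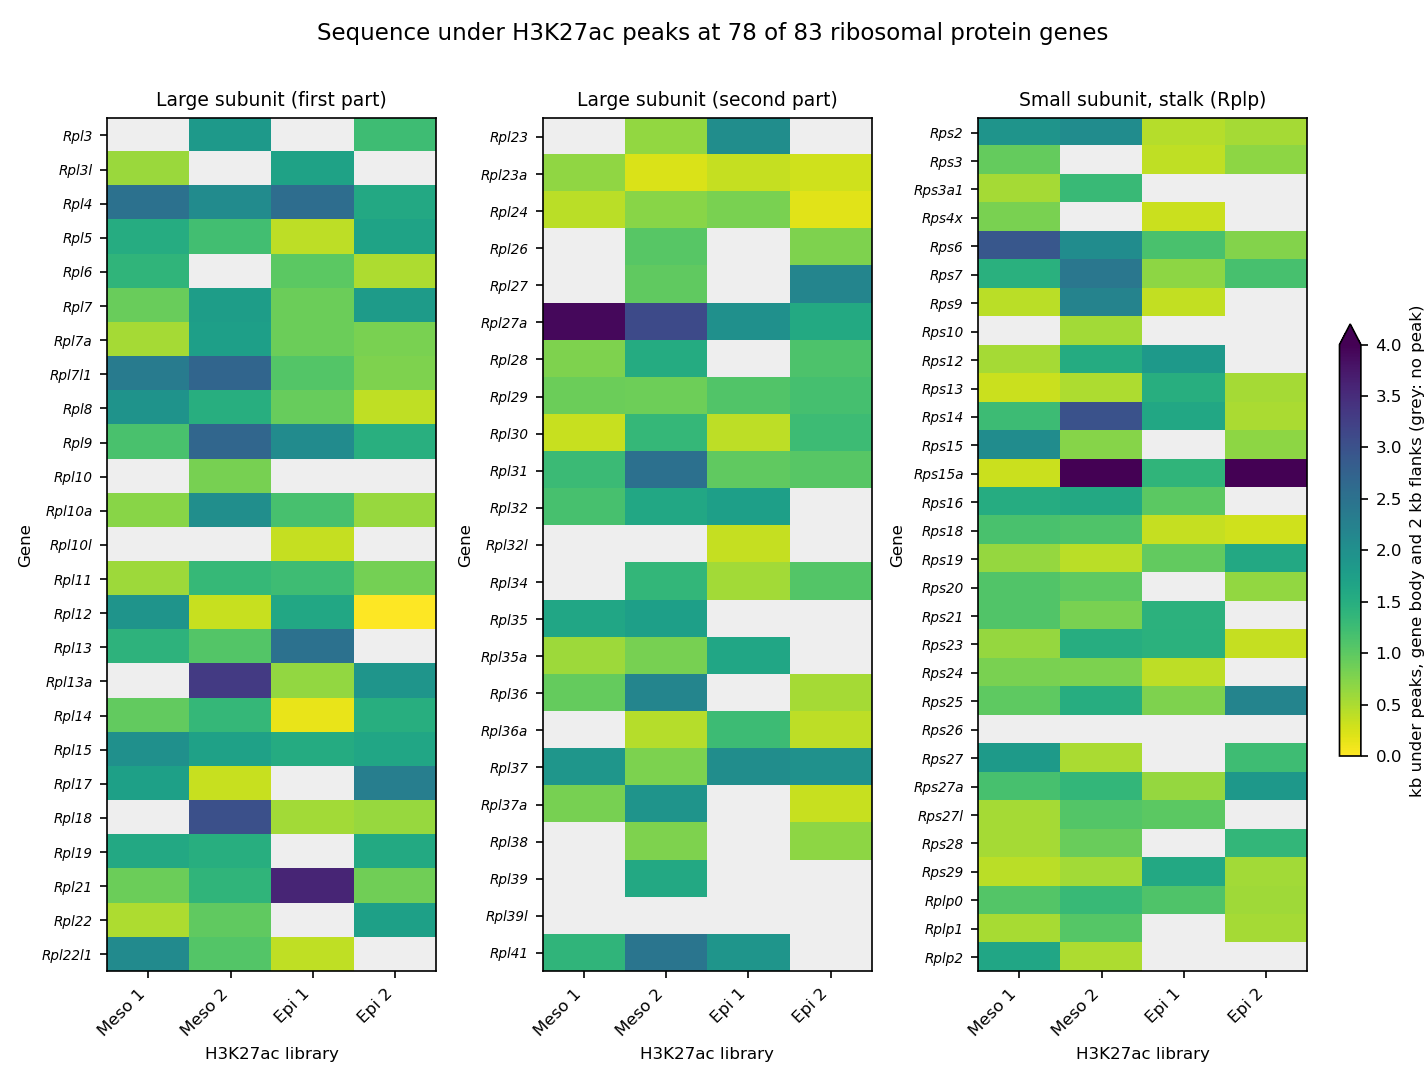
Length of sequence under H3K27ac peaks (colour, kb; 4 kb and above share the darkest colour) in the window of 78 of the 83 ribosomal protein genes in the 4 libraries, ordered by subunit and number, with windows without a peak in grey. Grey cells are fewest in mesothelium 2, where 70 of these windows hold a peak, and Rps15a is darkest, with 7.11 kb in mesothelium 2 and 4.22 kb in epithelium 2.

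The large-subunit proteins build the part of the ribosome that joins amino acids. Of their 43 genes, 31, 42, 30 and 35 had a peak. The longest means over the 4 libraries were those of Rpl27a, with 3.92, 3.09, 1.99 and 1.57 kb, and of Rpl4, whose protein lines the exit tunnel of the growing chain, with 2.51, 2.08, 2.57 and 1.59 kb. Rpl9 had 1.14, 2.67, 2.07 and 1.47 kb. Rpl15 had 2.00, 1.72, 1.54 and 1.64 kb, 1 peak over or next to its start in each library. Its lengths differed by less than those of the other 3 genes.

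The large-subunit gene with the shortest mean length was Rpl10, whose protein joins late in assembly near the catalytic centre. It had 0.827 kb in mesothelium 2 alone. That single peak was strong, with a fold enrichment of 6.04 and a −log10 q of 5.68, and its centre lay 483 bases before the start. In the other libraries the nearest peak to Rpl10 lay 23.4, 15.5 and 10.8 kb away. Rpl39, whose protein also lines the exit tunnel, likewise had a peak in mesothelium 2 alone. For Rpl12, a peak in epithelium 2 began 1999 bases from the gene and put 0.001 kb in the window. Where the nearest peak of each member was taken in each library, it was the one closest inside the 2 kb limit, with a fold of 4.14, and the next were those of Rpl14 in epithelium 1 at 1867 bases and Rpl24 in epithelium 2 at 1815 bases. Just outside lay peaks of epithelium 2 at 2252 bases from Rps24, 2299 bases from Rpl32 and 2335 bases from Rps21, with folds of 3.20, 3.17 and 3.12.

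The stalk proteins recruit the elongation factors to the large subunit. Rplp0, which anchors the stalk, had 1.07, 1.30, 1.10 and 0.571 kb. Rplp1 had 0.525, 1.05, 0 and 0.538 kb, and Rplp2 had 1.64, 0.488, 0 and 0 kb. All 3 stalk genes therefore had peaks in the window in both mesothelium libraries, and Rplp0 alone of the 3 had them in both epithelium libraries. Within 1 kb of its start, however, Rplp0 had a peak in mesothelium 1 and epithelium 2 only.

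The small-subunit proteins form the part that reads the messenger RNA. Of their 30 genes, 27, 27, 23 and 20 had a peak. Rps15a, the longest member gene (chr7:118104374-118116147), had the highest mean length, with 0.325, 7.11, 1.38 and 4.22 kb. The 4 values spread over a wide range within each cell type. Its strongest peak ranked at percentiles 26.3, 77.0, 26.6 and 55.4 of its list by −log10 q. Rps6, the classic substrate of S6 kinase, had 2.91, 2.06, 1.15 and 0.749 kb, and Rps14 had 1.26, 3.00, 1.59 and 0.502 kb. Rps10 had 0.547 kb in mesothelium 2 alone. Rps26 had no peak, and the nearest peak lay 34.5, 57.9, 20.4 and 34.4 kb away.

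The 7 genes named after another member include duplicates with restricted expression. Of these, 4, 3, 6 and 1 had a peak. Rpl7l1 was the only one with peaks in all 4 libraries, with 2.34, 2.70, 1.07 and 0.772 kb. Rpl22l1 had 2.09, 1.07, 0.388 and 0 kb, and Rps27l had 0.532, 1.06, 1.01 and 0 kb. Rpl3l, the copy of Rpl3 used in striated muscle, had 0.607, 0, 1.70 and 0 kb in a window that also reaches the gene Msrb1. Rpl10l and Rpl32l had 0.355 and 0.353 kb in epithelium 1 alone, and Rpl39l had none, its nearest peaks lying 7.63, 63.1, 3.09 and 39.3 kb away. Without these 7, 61, 72, 54 and 57 of 76 members had a peak.

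The strength of a peak is the peak caller's own value and was used within a list only. The median fold enrichment of the strongest peak of each member was 3.82, 4.50, 3.57 and 3.90, and the median −log10 q was 2.11, 3.21, 1.74 and 2.17. The strongest member peak of each list reached a −log10 q of 4.87 at Rps7, 12.5 at Rpl37, 8.63 at Rps7 and 5.05 at Rpl11. The median percentile of the members' strongest peaks in their list was 73.1, 87.2, 62.1 and 81.6, against 75.7, 79.2, 75.0 and 75.5 for all coding genes with a peak. By this measure members ranked above all coding genes in mesothelium 2 and epithelium 2 and below them in the other 2 libraries. The order depended on the peak taken: by the widest peak of each window, the median percentile was 67.7, 86.7, 62.1 and 81.6 for members and 57.9, 64.8, 58.0 and 59.0 for all coding genes, with members above in each library. The top 10% of the list held 26.2%, 42.7%, 20.0% and 34.5% of the members with a peak, and 27.2%, 30.3%, 25.8% and 26.4% of all coding genes with one.

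Among the 36 members with peaks in all 4 libraries, Rpl15 had the highest mean percentile, 92.2, with −log10 q values of 3.37, 3.69, 2.58 and 2.59. Rps7, a small-subunit protein that also binds the p53 regulator MDM2, followed with 91.2 and values of 4.87, 2.72, 8.63 and 2.45. Rpl8 reached 86.9 with values of 2.11, 5.50, 2.85 and 2.19. Rps29 reached 86.8 with 2.28, 9.23, 2.30 and 2.23, and Rpl29 reached 84.9 with 1.83, 3.42, 3.22 and 3.13. Of these 5, all except Rpl29 had a −log10 q above 2 in every library. The lowest mean percentile was that of Rpl10a, 27.5.

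Most members with a peak had a single one. Of the members with a peak, 54, 56, 55 and 49 had 1 peak and 11, 19, 5 and 9 had more. The median length in windows with a peak was 0.992, 1.34, 0.996 and 0.955 kb for members, and 1.48, 1.70, 1.56 and 1.47 kb for all coding genes, whose windows are longer. The median width of the widest peak in a window was 959, 1339, 996 and 1066 bases for members. For all coding genes it was 1137, 1271, 1115 and 1033 bases. The widest peaks of members were thus the wider in mesothelium 2 and epithelium 2 and the narrower in the other 2 libraries. Longer windows leave more peaks to choose from, so the width of peaks in general was not compared.

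The peaks lay close to the gene starts. Of the 63 members with an annotated start, 45, 52, 36 and 36 had a peak within 1 kb of it (71.4%, 82.5%, 57.1% and 57.1%), against 24.6%, 33.0%, 25.1% and 25.6% of coding genes. For the mitochondrial ribosomal protein genes the share was 43.5%, 68.1%, 37.7% and 49.3%, and for the vomeronasal receptors 3 of 321 (0.935%) in each library. Mesothelium 2 was highest in the first 3 of these sets. A peak covered the start base itself in 23, 32, 21 and 15 members (36.5%, 50.8%, 33.3% and 23.8%), against 14.5%, 22.3%, 14.5% and 14.4% of coding genes. Among members and coding genes alike, fewer had a peak on the start than nearby. The median centre of the nearby peaks lay 316, 245, 277 and 365 bases into the gene, against 182 to 190 bases for all coding genes. At Rpl35 the centres lay 856 and 246 bases into the gene in mesothelium 1 and 2, and at Rplp2 they lay 262 and 68 bases before its start.

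**Figure D4:**
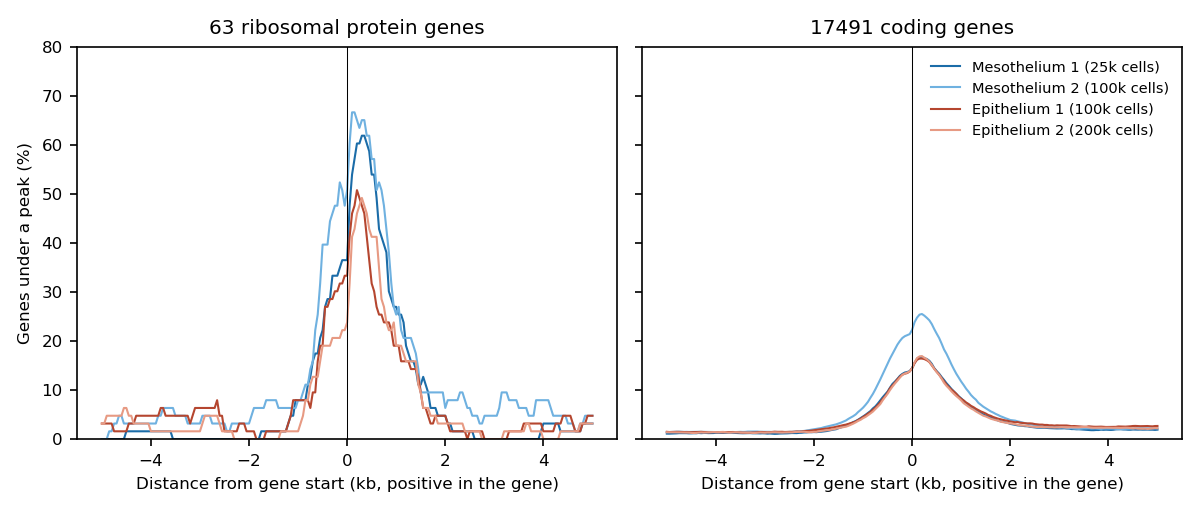
Share of genes under an H3K27ac peak at each distance from the annotated start, from 5 kb before to 5 kb after it, in 4 libraries (lines), for 63 ribosomal protein genes (left) and 17491 coding genes (right). The member curves peak 100 to 300 bases into the gene, at 61.9% and 66.7% in mesothelium 1 and 2 and at 50.8% and 49.2% in epithelium 1 and 2, above the highest share of all coding genes, 25.5%.

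Counting only peaks whose −log10 q reached 2, 22, 47, 13 and 18 members (34.9%, 74.6%, 20.6% and 28.6%) kept a peak within 1 kb of the start, against 12.7%, 25.4%, 9.82% and 10.7% of coding genes. The members lay above the coding genes at either threshold, and the counts themselves were set by the threshold.

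The question whether this reference set differed between mesothelium and epithelium was addressed with limma on log2(kb + 0.5), fitted over 9992 coding gene windows with a mean of at least 0.5 kb. Of the members, 70 were tested and 13 fell under that mean. No member passed an adjusted p of 0.05 in limma with Benjamini-Hochberg adjustment, whereas 119 windows (1.19%) were longer in mesothelium and 223 (2.23%) in epithelium. At an unadjusted p under 0.05 there was 1 member, Rpl35, longer in mesothelium, against 7.36% of all windows longer in mesothelium and 9.33% longer in epithelium. Scaling to the total covered length changed the split of calls from 119 and 223 to 47 and 51, and without scaling it was 43 and 92, with no member called in either case. The lowest adjusted p of any member was 0.170 to 0.595 over the 14 alternatives. A difference that misses the threshold does not show equal lengths, and the intervals of single members were wide.

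Rpl35, a large-subunit protein at the mouth of the exit tunnel, had 1.64 and 1.74 kb in mesothelium and none in either epithelium library. The difference was 2.11 on the log2(kb + 0.5) scale (SE 0.84, limma's 95% interval 0.33 to 3.89, adjusted p = 0.209, 0.170 to 0.798 over the alternatives). Its window reaches Wdr38, and 1 of its 3 peaks in mesothelium 2 is 3379 bases wide and lies outside the gene body. Rpl22l1, at 2.09 and 1.07 kb against 0.388 and 0 kb, differed by 1.58 (adjusted p = 0.365 in limma). Rplp2 differed by 1.52 (adjusted p = 0.452 in limma). Rpl37a had 0.826 and 1.93 kb against 0 and 0.336 kb, a difference of 1.45 (adjusted p = 0.423 in limma), and Rpl36 had 0.942 and 2.17 kb against 0 and 0.532 kb, a difference of 1.43 (adjusted p = 0.420 in limma). These 5 genes were chosen as the largest differences among members whose mesothelium libraries both lay above both epithelium libraries. That order was found in 25.7% of tested members and 23.8% of all windows.

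In the opposite direction, Rps19, which is needed for maturation of the small-subunit RNA and is mutated in Diamond-Blackfan anaemia, had 0.636 and 0.415 kb in mesothelium against 0.955 and 1.59 kb in the epithelial libraries. The difference was −0.79 (adjusted p = 0.665 in limma). Rps13 had 0.321 and 0.490 kb against 1.50 and 0.543 kb (−0.70), and Rps29 had 0.417 and 0.557 kb against 1.58 and 0.561 kb (−0.61). Rpl37 had 1.90 and 0.795 kb against 2.04 and 1.98 kb (−0.53), and Rpl29 had 0.904 and 0.876 kb against 1.09 and 1.18 kb (−0.25). The adjusted p of these 4 lay between 0.730 and 0.905 in limma. Rpl37 changed direction with the peak threshold: with only peaks whose −log10 q reached 2, its difference was 1.48.

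Over the 70 tested members, 48 differences were above 0 (68.6%), against 51.4% of all tested windows, and the median difference was 0.33 against 0.03. The libraries of the cell types did not overlap in 18 members with mesothelium higher and in 5 with epithelium higher, or 25.7% and 7.14% of those tested, against 23.8% and 22.1% of all windows. The share with mesothelium higher was thus near that of all windows, and the share with epithelium higher was below it. The summed mesenchymal and endothelial marker lengths given above were also higher in both mesothelium libraries, and their part in the members' median was not tested. The median over members was 0.14 and 0.22 for mesothelium 1 against epithelium 1 and 2, and 0.65 and 0.46 for mesothelium 2 against them. The pairs with mesothelium 2 therefore gave the larger medians. Leaving out 1 library gave medians of 0.25 to 0.49, with 62 to 69 members then passing the filter, and 0.36 without mesothelium 2. Within 1 kb of either gene end the median was 0.09 for members and 0.06 for all windows. With scaling to the total covered length, which moved the median of all windows by 0.16, the members' median was 0.44, or 0.26 above that of all windows.

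**Figure D5:**
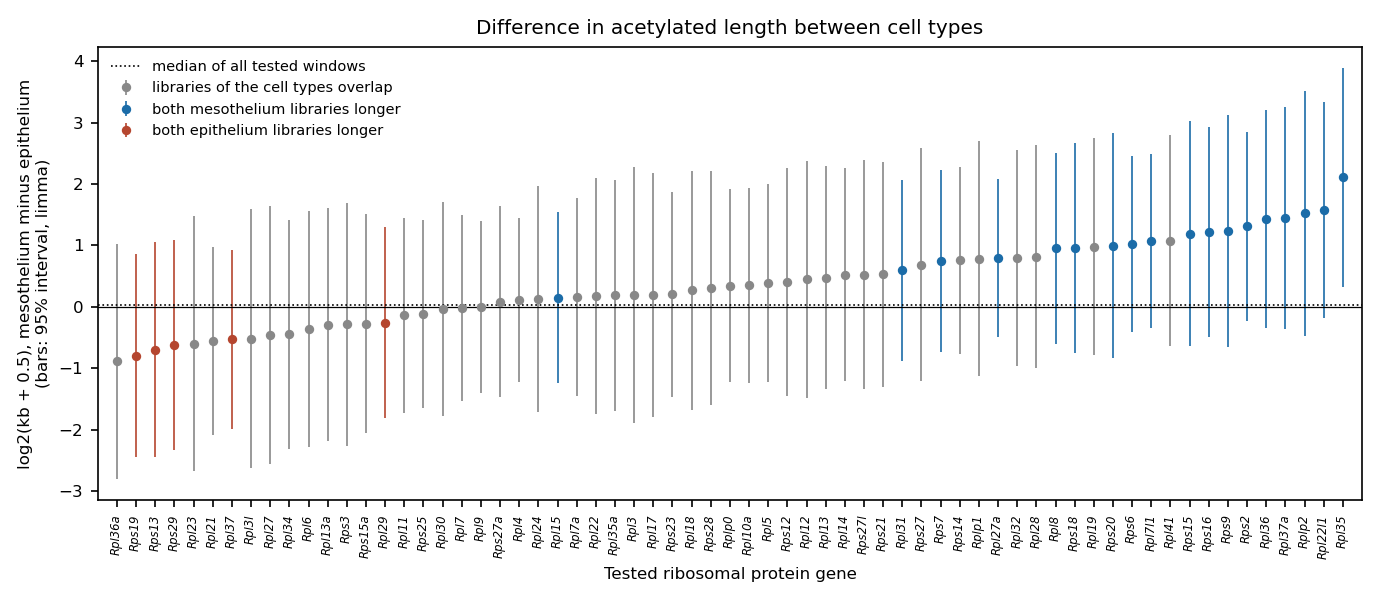
Difference in log2(kb + 0.5), mesothelium minus epithelium, for 65 of the 70 tested ribosomal protein genes (points) with limma's 95% interval (bars), in order of size; blue and red mark genes whose libraries do not overlap between the cell types. Of the 65 points, 45 lie above 0, and every interval except that of Rpl35 includes 0.

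Ribosomal protein genes that the name rule leaves out were read in the same way. Rpsa, which codes for a small-subunit protein, had 1.32, 2.28, 0.321 and 1.17 kb, and Rack1, the scaffold on the small subunit, had 1.93, 3.18, 3.18 and 1.63 kb. Fau, which codes for a small-subunit protein fused to a ubiquitin-like protein, had 0, 1.76, 0.826 and 0 kb. Rpl36al had 2.48, 1.05, 1.29 and 0.878 kb, and Rps27rt had no peak. None of the 5 tested was called.

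Genes of other steps of translation were read from lists. Of 24 tested initiation genes, 1 was called (4.17% longer in epithelium, against 2.23% of all windows), Eif3h, a subunit of initiation factor eIF3, with 5.62 and 6.17 kb in mesothelium against 22.2 and 17.1 kb in the epithelial libraries. Its difference was −1.67 (SE 0.40, adjusted p = 0.0285 in limma), and both epithelium libraries were longer. Its call held under 7 of the 14 alternatives, with adjusted p from 0.00644 to 0.893. It was lost when epithelium 1 (0.200) or epithelium 2 (0.126) was left out, and within 1 kb of either gene end the difference turned to 0.41. Eif3i, with 2.34 and 0.720 kb against none, did not pass (1.88, adjusted p = 0.309 in limma). None of 9 elongation genes was called. The largest difference toward mesothelium was that of Eef2, the translocation factor, with 1.51 and 0.720 kb against none. Toward epithelium the largest was that of Naca, a chaperone of nascent chains, with 1.80 and 1.40 kb against 5.25 and 4.12 kb. The differences of Eef2 and Naca were 1.63 (adjusted p = 0.401) and −1.32 (adjusted p = 0.266) in limma. None of 22 ribosome biogenesis genes, 10 genes of the mTOR and MYC pathways or 39 mitochondrial ribosomal protein genes was called. The medians of the differences were 0.12 for initiation, 0.21 for elongation, 0.04 for biogenesis, 0.43 for the mTOR and MYC pathways and −0.02 for the mitochondrial ribosomal protein genes.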

How the data were processed

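The files were lists of broad peaks, 1 for each of the 4 H3K27ac libraries, called per library as the peak names show. The build mm10 and the tools MACS2 2.2.9.1, Bowtie2 2.5.3, cutadapt 4.8, bedtools 2.31.1, HOMER, DiffBind 3.6.5, edgeR, deepTools 3.5.5 and FastQC are listed in the submitters' processing notes, without roles. The control of peak calling and its threshold are not stated in any label or file used. The lowest deposited −log10 q was 1.00 to 1.03. The deposited ratio is a fold enrichment made by the authors' peak caller, the deposited −log10 p and −log10 q are its significance, and the deposited score, the whole part of 10 times −log10 q in nearly all peaks, was not used. Counts per region were not analysed here, so no count model was run. Groups came from the titles. The protocol in the labels gives a range of mesothelial cell numbers that does not include the 25k of 1 title.

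Genes were placed by a RefSeq table of GRCm38.p6. Peaks off chromosomes 1 to 19, X and Y were left out (1 to 8 per library). Bases under peaks were summed per window, log2(kb + 0.5) was centred on the median of 6507 windows with a peak in all 4 libraries, and limma 3.58.1 (R 4.3.3) was fitted over 9992 windows with an intensity trend, and p-values were adjusted over all of them by Benjamini-Hochberg. The rest was done in Python 3.11.15 with matplotlib 3.10.9, scipy 1.17.1, numpy 2.4.6 and pandas 2.3.3. Coverage and limma steps were tested on simulated data. Percentiles rank a peak by −log10 q within its own list. Starts and strands came from the RefSeq promoter table. It had no entry for 20 members, among them Rpl17, Rpl21, Rpl23a, Rpl29, Rpl3, Rpl30, Rpl32, Rpl36, Rpl7, Rpl8, Rplp1, Rps14, Rps20, Rps27a and Rps29. Values of 5 members and of 1 gene outside the name rule are counted in the totals but not reported here.

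The members, the gene lists and the tests were chosen with earlier results of these data known. Named by rule were members passing limma, the 5 largest differences per direction among members whose libraries do not overlap, the 6 longest and 6 shortest mean lengths, members without a peak, the 5 highest mean percentiles among members with peaks in all 4 libraries, members with peaks in 1 cell type only, members named after another, ribosomal genes outside the name rule, members next to the 2 kb limit, and up to 4 genes per other list. Other members were named after their values were seen. The alternatives covered pseudocount, filter, scaling, window, peak threshold, number of peaks, overlap, replicate block and leaving out each library.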

Additional observations from a re-analysis of the deposited data

How the results depend on the processing

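No member was called under any of the 14 alternatives of the limma test. The 342 called windows over all coding genes became 1 with log2(kb + 0.1), 98 with scaling to the total covered length, 135 without scaling, 177 with an equal number of peaks per library, 548 with the replicate numbers as a block (replicate block), and 0 both within 1 kb of either gene end (406 at an unadjusted p under 0.05) and where −log10 q had to reach 2 (878 unadjusted). Leaving out 1 library gave 106 (without epithelium 2) to 295 (without mesothelium 1). The median difference of the members, 0.33, was 0.68 with log2(kb + 0.1), 0.092 within 1 kb of either gene end and 0.75 at a −log10 q of at least 2, and stayed above 0 under every alternative run. Rpl37 reversed to 1.48 at a −log10 q of at least 2, and leaving out 1 library moved it between −1.06 and 0.048, the latter without mesothelium 2. Deviations from the mean of each cell type gave same-numbered libraries a correlation of 0.0281 over 9992 windows. With 2 libraries per cell type both pairs must give this same value, so it is a single value. The replicate numbers were not taken as pairs, and the block changed no call of a member.

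The 36 members with a peak in all 4 libraries became 23 with gene bodies alone (27.7%, against 26.6% of all coding genes), 4 at a −log10 q of at least 2 (4.82% against 9.34%) and 0 at 4 (against 0.0366%). The excess over all coding genes was thus nearly gone in the first and turned in the second. It was kept with 5 kb flanks (55.4% against 32.8%) and within 1 kb of either gene end (34.9% against 10.9%). The 3 members with peaks in mesothelium only became 1 with 5 kb flanks (1.20% against 2.38%), 5 with an equal number of peaks (6.02% against 3.10%), 13 at a −log10 q of at least 2 (15.7% against 5.27%), 0 at 4 (against 0.749%) and 3 to 14 when 1 library was left out (3.61% to 16.9% against 4.91% to 6.01%), 14 without either epithelium library. The 0 members with peaks in epithelium only became 0 to 5 in this way (0 to 6.02% against 5.35% to 6.33%), 5 without mesothelium 2. Members with a peak numbered 35, 68, 18 and 31 at a −log10 q of at least 2, or 42.2%, 81.9%, 21.7% and 37.3% against 27.2%, 40.4%, 24.1% and 24.5% of all coding genes, with epithelium 1 below. At 4 they numbered 2, 23, 3 and 1, or 2.41%, 27.7%, 3.61% and 1.20% against 2.67%, 9.42%, 1.94% and 2.06%, with mesothelium 1 and epithelium 2 below. Those with a peak within 1 kb of the start numbered 22, 47, 13 and 18 at a −log10 q of at least 2. The causes of these shifts were not tested. Depth is unknown and limits every count of peaks.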

Other observations

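The 4 members on the X chromosome, a split chosen after their values were seen, had fewer peaks than the others. Rpl10 and Rpl39 had a peak in mesothelium 2 alone, Rps4x in mesothelium 1 and epithelium 1, and Rpl36a in all libraries except mesothelium 1. A peak lay in 1, 3, 2 and 1 of these 4 windows, and in 64, 72, 58 and 57 of the 79 autosomal ones. None of the 4, and 45.6% of the autosomal members, had peaks in all 4 libraries. Of all coding genes, 10.6% of 966 on the X chromosome and 31.0% of 20661 on the autosomes had peaks in all 4 libraries. The difference was not tested.

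A small nucleolar RNA, a guide for the modification of other RNAs, lay inside 29 members (34.9%) and 1.70% of all coding genes. Rpl4 held 5 of them, and Rpl7a and Rpl13a held 4 each. These host genes had a peak in 75.9%, 93.1%, 75.9% and 65.5% of cases, and the other 54 members in 79.6%, 88.9%, 70.4% and 72.2%, with no order that held in all 4 libraries.

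The annotation also names 306 pseudogenes of ribosomal proteins. A peak touched 3, 1, 2 and 4 of them (0.980%, 0.327%, 0.654% and 1.31%), against 2.48%, 2.21%, 3.09% and 3.04% of 10123 other pseudogenes, which are longer, with a median of 944 bases against 527.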
